A study of Mus musculus with 4 samples.

Results

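The Hoxd cluster is a row of 9 homeobox genes on mouse chromosome 2, and the question asked of the Hi-C maps here was how its bins share their contacts between the chromosome on the Hoxd13 side and the chromosome on the Hoxd1 side. The members were all 9 protein-coding Hoxd genes, out of 22367 protein-coding genes of the annotation, and they span chr2:74506367-74603200 (mm9, 96.8 kb). The maps are binned at 40 kb, so the genes fall into 4 of 66382 bins, and the bins within 1.5 Mb of the gene bodies number 78. Hi-C counts how often a pair of genomic regions was ligated, and it was read from 1 matrix for each of 2 groups of male mouse embryonic stem cells (mESCs). By the study's methods, WT cells were of the N3 line, were grown in 2i medium and carry the intact Firre locus of the X chromosome. The cells labelled Firre KO are given as carrying a deletion of Firre, a long non-coding RNA locus, and were grown in 2i medium with irradiated feeder fibroblasts that were depleted before use. Each matrix pooled 2 libraries that were technical duplicates, so labelled genotype, culture and possibly cell line differ together and cannot be told apart, and no difference between the matrices has a replicate check. Hi-C measures no expression, so the labelled cell type was not checked against marker genes.

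Hox genes encode transcription factors that give cells their position along the body axis and the limb, and in a cluster the genes lie in the order in which they are used. The Hoxd cluster is known for its place between a pair of gene-poor regulatory domains. Enhancers on the Hoxd13 side drive Hoxd13 and its neighbours in digits and external genitalia, while enhancers on the Hoxd1 side drive genes such as Hoxd9, Hoxd10 and Hoxd11 in the forearm and other tissues. In stem cells the cluster is a classic target of Polycomb repression. The border between these domains is known to lie within the cluster, and such borders are commonly marked by sites of the insulator protein CTCF.

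WT had 65611035 read pairs in all and the matrix with the Firre KO label, here called the KO-labelled matrix, had 46635652, of which 16.1% and 35.6% joined different chromosomes. The bin that lies wholly inside the deletion, chrX:47920001-47960000, kept 1144 intra-X read pairs in the KO-labelled matrix beside 1550 in WT, or 1437 and 1709 per 1000000 intra-X read pairs. These counts go against a complete loss of the locus, so every direction below compares WT with a matrix under that label and not cells known to lack Firre. Read pairs that leave chromosome 2 made up 10.4% to 12.4% of the read pairs of a Hoxd bin in WT and 25.6% to 31.6% in the KO-labelled matrix. The part of this shift in the results was not tested.

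Bin 1 of the cluster (chr2:74480001-74520000) holds Evx2, a homeobox gene that neighbours the cluster, with Hoxd13 (74506367 to 74509656) and Hoxd12 (74512986 to 74515763). Both encode posterior Hox proteins of the distal limb and the hindmost trunk. Hoxd11 (74517449 to 74525798), which acts in the forearm and the sacral region, starts in bin 1 and ends in bin 2. Bin 2 (chr2:74520001-74560000) holds Hoxd10, Hoxd9 and Hoxd8, which act in the trunk and the proximal limb, and the start of Hoxd3. Bin 3 (chr2:74560001-74600000) holds the rest of the Hoxd3 gene and Hoxd4, which act in the neck and hindbrain, and bin 4 (chr2:74600001-74640000) holds Hoxd1, which acts in sensory neurons. Genes that share a bin share all of its values. Each flank held 37 bins, all of them kept in both matrices, with 11 protein-coding gene starts on the Hoxd13 side and 7 on the Hoxd1 side.

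The first 3 Hoxd bins were rich in CpG sites. Bins 1, 2, 3 and 4 held 1062, 1283, 873 and 460 of them, against a median of 316 over 4397 kept bins of chromosome 2, and 99.7% or more of those bins had fewer than any of bins 1 to 3. Their HindIII sites, where the chromatin was cut, numbered 13, 10, 9 and 14, beside a median of 13. The sequence was also searched on both strands for a motif of the CTCF type of 12 positions, CCA, any 2 bases, AG, any 2 bases, and GGC. The motif had 3 matches in the cluster, 2 in bin 1 and 1 in bin 2, and they are shown because bin 1 carries the boundary described next. Of the kept bins of chromosome 2, 78.5% held at least 1 match and 54.4% held at least the 2 of bin 1, so these counts do not set the Hoxd bins apart. A match is a run of letters and not a bound site. The sequences are read 5′ to 3′ on the strand of the match (mm9), with the motif in capitals.
match 1: cctctggttCCAAAAGCTGGCcaagtacga
match 2: gccaaacgcCCAGGAGATGGCgagcgtgct
match 3: gagctttgtCCAGGAGGAGGCgctgtagga
Match 1 lies on the plus strand between Evx2 and Hoxd13 (chr2:74500172-74500183). Match 2 lies on the minus strand between Hoxd13 and Hoxd12 (chr2:74511235-74511246). Match 3 lies on the plus strand in bin 2 (chr2:74553978-74553989), outside the annotated exons of Hoxd3 but inside its gene body, and in an exon of the lincRNA 1700109F18Rik of the opposite strand.

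A boundary between topologically associating domains (TADs) was called in the same bin of both matrices, bin 1, which holds Evx2, Hoxd13, Hoxd12 and the start of Hoxd11. Its strength was read from the delta, the mean insulation score of the 4 bins before a bin minus that of the 4 bins after it, as the drop from the peak of the delta to its trough. It was 1.41 in WT and 2.22 in the KO-labelled matrix. It ranked 32 of 190 boundaries of chromosome 2 in WT and 34 of 178 in the KO-labelled matrix. Over all autosomes, 430 of 2572 WT boundaries (16.7%) had a boundary of the other matrix in the same bin. The difference in strength at Hoxd was 0.82 (95% counting interval 0.64 to 0.99). For the 430 autosomal boundaries placed in the same bin, the median of this difference was 0.54, and the 5th and 95th percentiles were -0.31 and 2.76, so the higher strength in the KO-labelled matrix lay within the range seen at other boundaries. With a square of 960 kb in place of 480 kb the strengths were 0.11 and 0.40.

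The insulation score is the log2 of the contacts passing over a bin relative to the chromosome mean, averaged over 5 neighbouring bins. It was lowest in bin 1 in both matrices. Scores of neighbouring bins share most of their contacts, so the 4 Hoxd scores are not separate readings. From bin 1 to bin 4 it read -0.46, -0.44, -0.37 and -0.25 in WT. In the KO-labelled matrix it read -0.87, -0.82, -0.68 and -0.49. Each Hoxd bin was therefore lower in the KO-labelled matrix, by -0.41 (-0.52 to -0.30) at bin 1. Over 55375 autosomal windows of 4 bins the median of this difference was -0.08, and 25.5% of them were lower than the Hoxd value. The square above bin 1 alone, before averaging, rested on 1347 read pairs in WT and 614 in the KO-labelled matrix. The score at bin 1 was not extreme for the chromosome, as 22.7% of chromosome 2 bins in WT and 18.7% in the KO-labelled matrix were lower. With a square of 960 kb the lowest Hoxd score was above the chromosome mean, at 0.34 in WT and 0.26 in the KO-labelled matrix, and the difference was -0.08. From uncorrected read pairs the difference was -0.26.

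**Figure D1:**
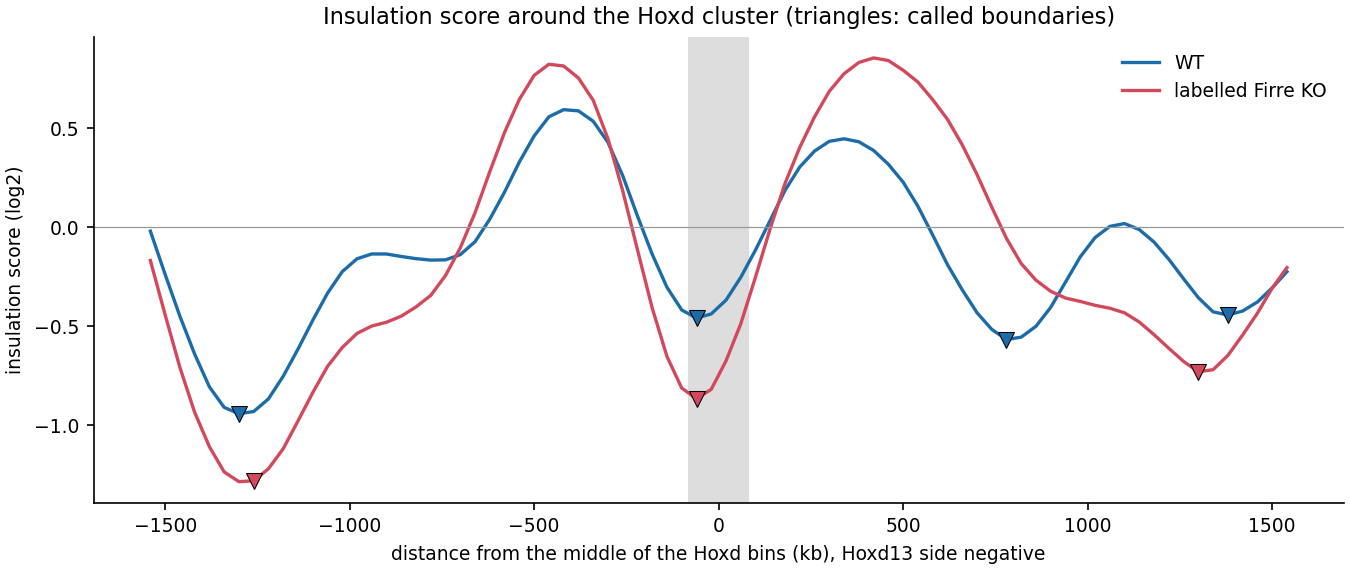
Insulation score (log2, y axis) of both matrices against the distance of each 40 kb bin from the middle of the Hoxd bins (kb, x axis), with the 4 Hoxd bins shaded and called boundaries as triangles. Both lines have a low point at bin 1, at -0.46 in WT and -0.87 in the KO-labelled matrix. At 780 kb only the WT line has a called boundary, though the other line also falls over this stretch.

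Around the cluster, the boundary on the Hoxd13 side was placed 1 bin apart in both matrices. It lay at chr2:73240001-73280000 in WT (strength 1.52, rank 29 of 190) and at chr2:73280001-73320000 in the KO-labelled matrix (1.80, rank 55 of 178). Both of these bins lie at Wipf1, which encodes a protein of the actin cytoskeleton. On the Hoxd1 side WT had a boundary at chr2:75320001-75360000, with a strength of 1.09 and a rank of 68 of 190, and the KO-labelled matrix had none nearer than 520 kb. Of the autosomal WT boundaries, 8.13% had no boundary of the other matrix nearer than that distance. The insulation score at this place was -0.57 in WT and -0.06 in the KO-labelled matrix. The score of the KO-labelled matrix also fell over this stretch, from 0.86 at 420 kb to -0.37 at 980 kb from the middle of the Hoxd bins. Its delta stayed above 0 there (0.14 at 1020 kb), so no boundary was called. The alternative settings were not applied to this boundary. A weaker boundary followed at Pde11a, a phosphodiesterase gene. It lay at chr2:75920001-75960000 in WT (0.70, rank 121 of 190) and at chr2:75840001-75880000 in the KO-labelled matrix (0.75, rank 145 of 178).

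**Figure D2:**
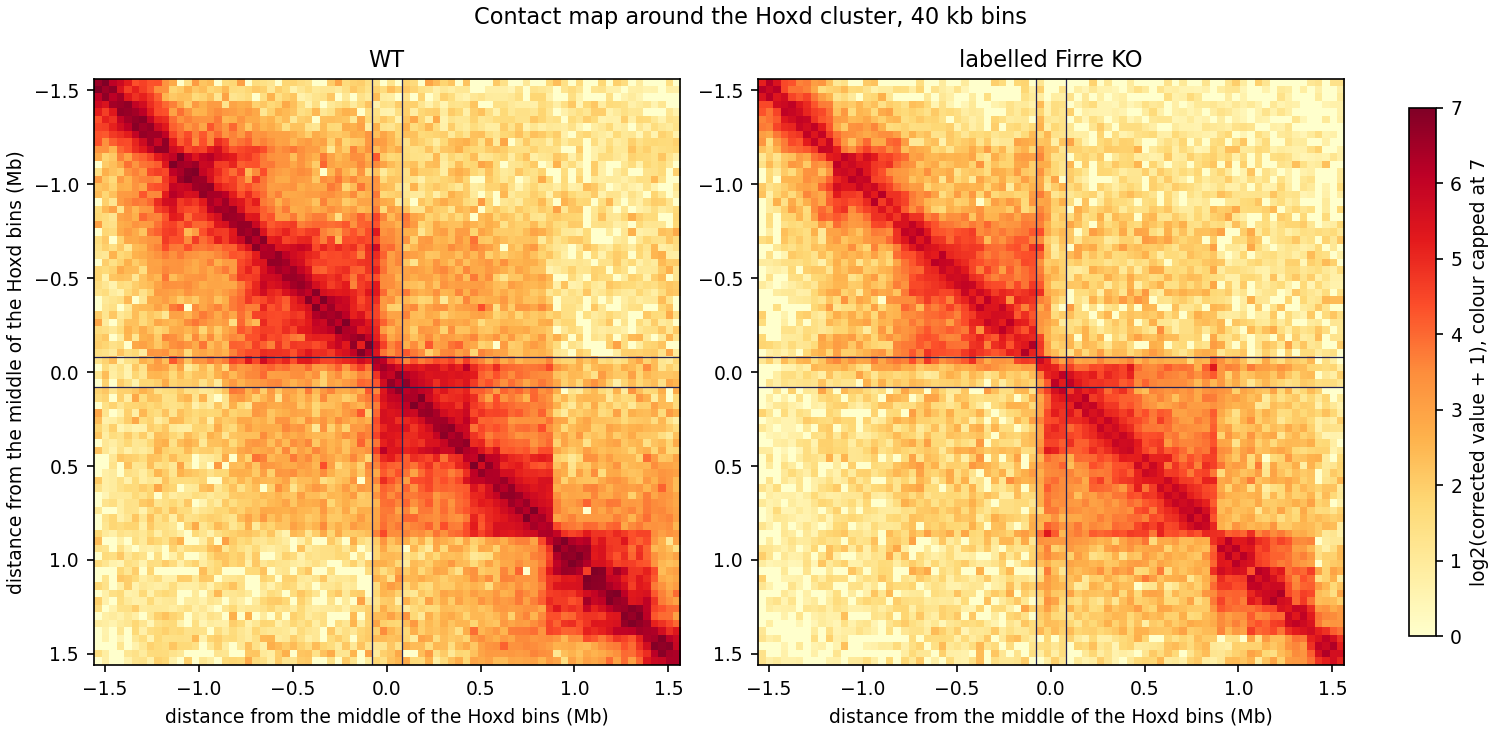
Corrected Hi-C values of both matrices for all pairs of 40 kb bins within 1.5 Mb of the Hoxd genes, on a log2(value + 1) scale, with distance from the middle of the Hoxd bins (Mb) on both axes and thin lines at the edges of the 4 Hoxd bins. Relative to the chromosome's mean for the distance, bin 1 has more contact with the Hoxd13-side flank and bins 2 to 4 with the Hoxd1-side flank in both matrices. This holds for means over a whole flank. With the Hoxd13-side bin next to it, bin 1 has only 0.406 of that mean in WT and 0.438 in the KO-labelled matrix. All kept bins of a matrix sum to the same total, which is lower in the KO-labelled matrix, so colours are compared within a map.

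The contacts of the cluster changed sides between bin 1 and bin 2. Contacts are given as observed over expected, the corrected value over the chromosome's mean for that distance in the same matrix, where 1 is the chromosome mean. Bin 1, with Hoxd13 and Hoxd12, had a value of 2.08 (1.90 to 2.29, 830 read pairs) with the Hoxd13-side flank and 1.17 (1.03 to 1.34, 440 read pairs) with the Hoxd1-side flank in WT. Bin 2, with Hoxd10, Hoxd9 and Hoxd8, had 1.03 (0.896 to 1.20) with the Hoxd13-side flank and 2.05 (1.88 to 2.25) with the Hoxd1-side flank. The sides of these neighbouring bins were thus opposite, although the bins adjoin.

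Bins 3 and 4 lay on the side of bin 2. Bin 3, with Hoxd4, had 0.936 and 1.68 in WT for the Hoxd13-side and Hoxd1-side flanks. Bin 4, with Hoxd1, had 0.849 and 1.43. The Hoxd1-side contacts were highest for bin 2 and lower for bins 3 and 4, and the intervals of bins 2 and 4 did not overlap.

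The KO-labelled matrix had the same switch. Bin 1 had 2.14 (1.93 to 2.39) with the Hoxd13-side flank and 1.40 (1.22 to 1.61) with the Hoxd1-side flank. Bin 2 had 1.00 (0.845 to 1.20) and 2.95 (2.69 to 3.25). Bin 3 had 0.676 and 2.15, and bin 4 had 0.705 and 1.55. In both matrices bin 1 was the Hoxd bin with the highest value for the Hoxd13 side and bin 2 the one with the highest for the Hoxd1 side.

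**Figure D3:**
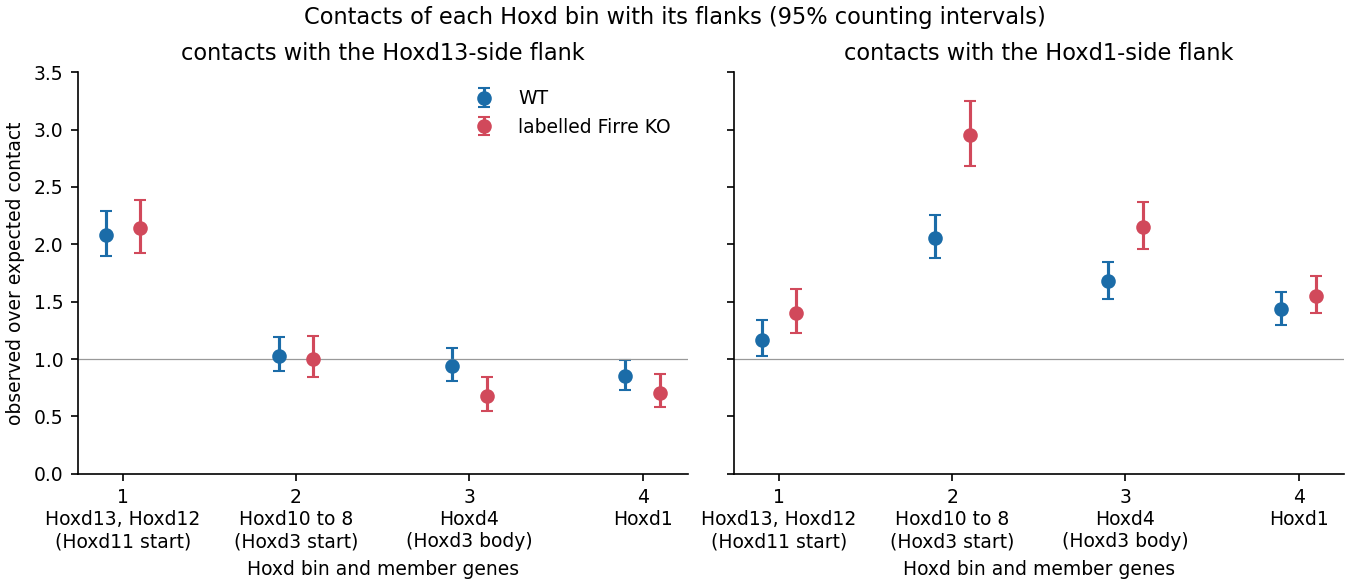
Observed over expected contact (y axis) of each of the 4 Hoxd bins (x axis, with the member genes) with the Hoxd13-side flank (left) and the Hoxd1-side flank (right), where points are the values of the single matrix of each group and bars are 95% counting intervals. Bin 1 is the only bin near 2 on the left, at 2.08 and 2.14, and bins 2 to 4 lie above bin 1 on the right in WT.

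The preference for a side, the log2 of the Hoxd13-side over the Hoxd1-side value, put a size on this switch. In WT it was 0.83 (0.61 to 1.05) in bin 1, -1.0 (-1.23 to -0.77) in bin 2, -0.84 (-1.09 to -0.60) in bin 3 and -0.76 (-1.0 to -0.51) in bin 4. The step from bin 1 to bin 2 was 1.83 (1.51 to 2.15), while the steps from bin 2 to bin 3 and from bin 3 to bin 4 were -0.16 and -0.09, with intervals that include 0. In WT the change in side therefore fell between bin 1 and bin 2. Their border lies in Hoxd11 but is set by the 40 kb grid, so the place of the change within these bins is not resolved. In the KO-labelled matrix the preference was 0.61, -1.56, -1.67 and -1.14, and the step from bin 1 to bin 2 was 2.17 (1.81 to 2.53). There the step from bin 3 to bin 4 was -0.53 (-0.96 to -0.10), so the Hoxd1 bin leaned less to the Hoxd1 side than its neighbour.

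The difference between the first and the last Hoxd bin was 1.59 (1.26 to 1.92) in WT and 1.75 (1.36 to 2.13) in the KO-labelled matrix. The size of this difference was smaller in 97.4% and 94.0% of 55404 autosomal windows of 4 bins, which overlap each other and include windows with no genes. With flanks of 0.5 Mb it was 2.12 in WT and 2.87 in the KO-labelled matrix. Between the matrices, the preference moved towards the Hoxd1 side by -0.56 (-0.92 to -0.21) in bin 2 and -0.83 (-1.22 to -0.43) in bin 3. In bin 1 and bin 4 the differences were -0.22 (-0.55 to 0.10) and -0.38 (-0.77 to 0.01). These differences between matrices were not measured over other windows, so their place among them is not known. Side preferences were more spread in the KO-labelled matrix in general. Over the autosomal windows the size of the first-to-last difference had a median of 0.41 in WT and 0.52 in the KO-labelled matrix.

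The Hoxd bins also had few contacts with each other. The mean over the 6 pairs of Hoxd bins was 0.712 (0.646 to 0.783, 488 read pairs) in WT and 0.626 (0.552 to 0.709, 291 read pairs) in the KO-labelled matrix, and 3.83% and 4.0% of the autosomal windows were lower. The ratio of the matrices had an interval that includes 0 on the log2 scale, -0.18 (-0.41 to 0.04). The log2 ratio of these contacts passed 1.5-fold in either direction in 2.55% of the windows. Low values were not particular to Hoxd among the Hox clusters. The same mean was 0.774 in WT and 0.714 in the KO-labelled matrix at Hoxa, and 0.780 and 0.855 at Hoxb. At Hoxc it was 1.01 and 0.913.

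The lowest values were those of bin 1 with bins 3 and 4. With bin 2, bin 3 and bin 4, bin 1 had 0.679, 0.490 and 0.444 in WT, from 83, 37 and 27 read pairs. In the KO-labelled matrix these were 0.629, 0.402 and 0.319, from 49, 20 and 13 read pairs. The Hoxd13 and Hoxd12 bin was therefore set off from the Hoxd4 and Hoxd1 bins in both matrices. Bin 2 had 0.712 with bin 3 and 0.905 with bin 4 in WT, and 0.598 and 0.596 in the KO-labelled matrix, where both were as low as its value with bin 1. Bins 3 and 4 had 1.04 (0.892 to 1.21) with each other in WT and 1.21 (1.01 to 1.44) in the KO-labelled matrix, close to or above the chromosome mean.

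Along the Hoxd13-side flank, the mean contacts of bins 2 to 4 with the nearest flank bins were low. For the flank bins within 480 kb of the cluster, bin 1 had 1.47 in WT, while bins 2, 3 and 4 had 0.675, 0.501 and 0.499. In the KO-labelled matrix these values were 1.27, 0.656, 0.394 and 0.315. Single bins show that bin 1 was also near or below the chromosome mean next to the cluster, with 0.406 in WT and 0.438 in the KO-labelled matrix at 40 kb and 0.942 and 0.705 at 240 kb, and above it farther out, with 2.48 and 3.27 at 360 kb. From 480 to 1000 kb the bin with Hoxd13 and Hoxd12 reached 2.99 (2.64 to 3.37) in WT and 3.0 (2.58 to 3.48) in the KO-labelled matrix. The other Hoxd bins lay between 1.1 and 1.23 there in WT and between 0.841 and 1.32 in the KO-labelled matrix.

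The gene next to Evx2 on this side is Lnp, which encodes a protein that shapes the endoplasmic reticulum and whose gene is surrounded by limb enhancers. The bin of the Lnp start had 0.614 (0.476 to 0.784) with the Hoxd bins in WT and 0.391 (0.260 to 0.570) in the KO-labelled matrix. The next gene, Atp5g3, encodes a subunit of the mitochondrial ATP synthase, and its start bin had 2.10 and 1.90. That bin, chr2:73720001-73760000, was among the 3 flank bins of this side with the highest WT value, and it also holds the start of Atf2, a transcription factor of the stress response. The others were chr2:73880001-73920000 and chr2:73800001-73840000, which hold no protein-coding start.

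These 3 bins were chosen by their WT value over all Hoxd bins, and in each of them bin 1, with Hoxd13, had the highest value of the Hoxd bins in both matrices. Bin 1 had 6.23 with chr2:73880001-73920000 in WT (60 read pairs) and 5.31 in the KO-labelled matrix (28 read pairs). It had 5.51 and 4.39 with chr2:73800001-73840000 and 3.74 and 3.41 with the Atp5g3 bin. With the Atp5g3 bin, bin 2 had 2.07 and 2.38 and bin 4 had 1.72 and 1.19, and bin 1 held 18 of its 39 read pairs in WT and 12 of 25 in the KO-labelled matrix. For bins 2 to 4 the values with chr2:73880001-73920000 lay between 1.34 and 2.14 in WT. Over all Hoxd bins that bin had 2.86 in WT and 1.80 in the KO-labelled matrix.

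On the Hoxd1 side the neighbour of the cluster is Mtx2, which encodes a subunit of the mitochondrial import machinery. Its start bin adjoins bin 4 and had 0.931 (0.789 to 1.1) with the Hoxd bins in WT and 1.13 (0.927 to 1.38) in the KO-labelled matrix. Hnrnpa3, an RNA-binding protein gene and the next beyond Mtx2, had 0.869 (0.512 to 1.39) from 18 read pairs in WT and 2.04 (1.39 to 2.89) from 32 read pairs in the KO-labelled matrix. These intervals met at their ends, and the log2 ratio was 1.23 (0.39 to 2.07).

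The 3 flank bins of this side with the highest WT values hold no protein-coding gene start. The first, chr2:74960001-75000000, had 3.31 (2.98 to 3.67, 386 read pairs) in WT and 3.46 (3.02 to 3.96, 224 read pairs) in the KO-labelled matrix. With this bin, the bin of Hoxd10, Hoxd9 and Hoxd8 had 5.58 in WT and 5.49 in the KO-labelled matrix, from 141 and 75 read pairs. Bins 3 and 4 had 2.88 and 2.61 in WT and 4.24 and 2.36 in the KO-labelled matrix. Bin 1 had 2.16 and 1.77.

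The second, chr2:75400001-75440000, had 2.7 (2.17 to 3.33, 92 read pairs) in WT and 5.91 (4.95 to 7.01, 135 read pairs) in the KO-labelled matrix, with a log2 ratio of 1.13 (0.74 to 1.51). Bin 2 had 4.38 with it in WT and 12.5 in the KO-labelled matrix, from 34 and 65 read pairs. Bin 3 had 2.03 and 5.17, bin 1 had 2.60 and 4.72, and bin 4, with Hoxd1, had 1.81 and 1.29. The value of the KO-labelled matrix was thus higher at the 3 bins that hold Hoxd13 to Hoxd4 and not at the Hoxd1 bin. Read pairs were few, with 19 and 26 for bin 1, 19 and 34 for bin 3 and 20 and 10 for bin 4. No interval was computed for these single-bin ratios, so the contrast of bin 4 with the others is not settled. The third, chr2:75920001-75960000, had 2.25 and 2.11 from 33 and 26 read pairs.

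**Figure D4:**
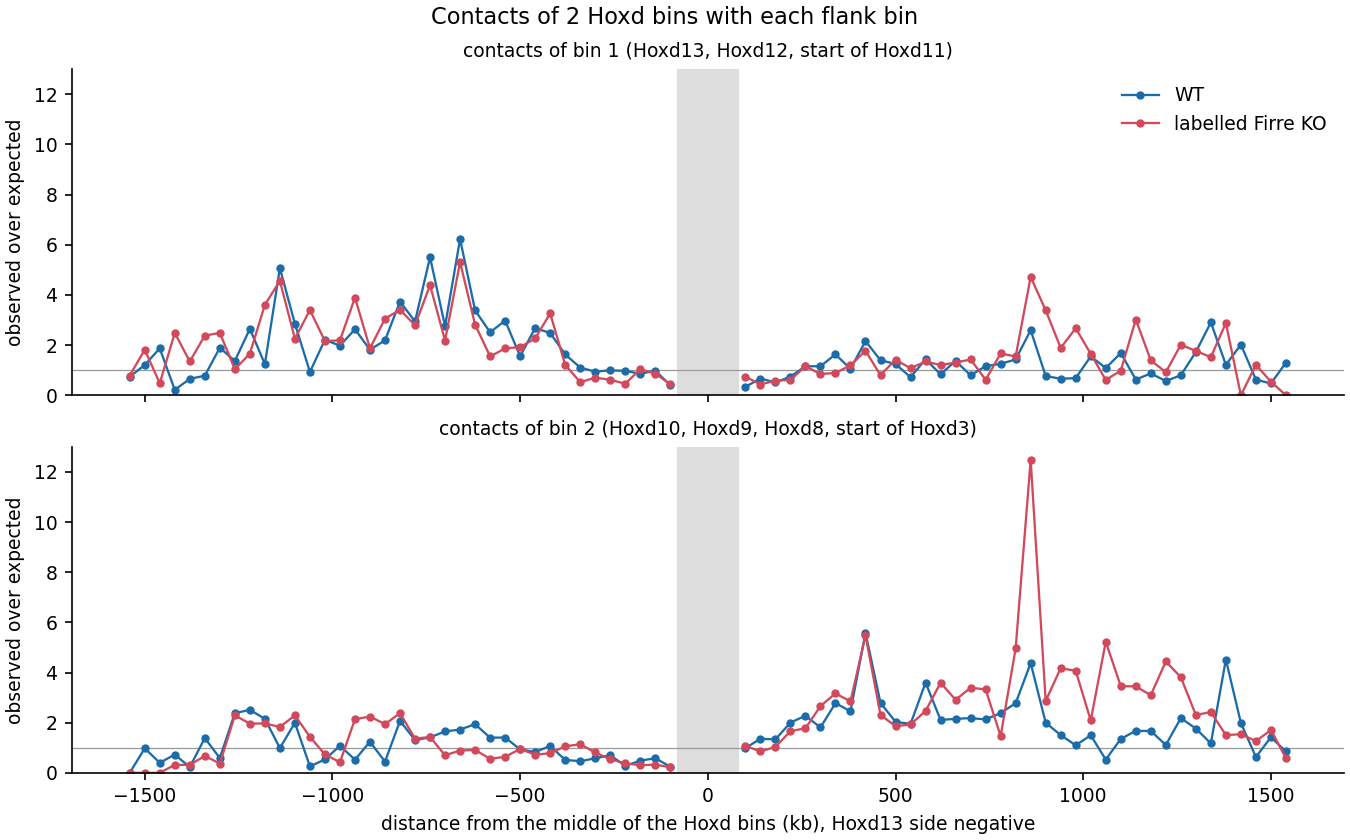
Observed over expected contact (y axis) of bin 1 (top) and bin 2 (bottom) with every flank bin, against the distance of the flank bin from the middle of the Hoxd bins (kb, x axis), with 1 point per 40 kb bin and the Hoxd bins shaded. The highest point of bin 1 is on the Hoxd13 side, at 6.23 in WT and 5.31 in the KO-labelled matrix, which also has 4.72 on the Hoxd1 side, and the highest point of bin 2 is on the Hoxd1 side, at 5.58 in WT and 12.5 in the KO-labelled matrix.

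Taking all Hoxd bins and a whole flank, the contacts with the Hoxd13 side were 1.22 (1.15 to 1.30, 1740 read pairs) in WT and 1.13 (1.05 to 1.22, 1007 read pairs) in the KO-labelled matrix. The log2 ratio was -0.11 (-0.25 to 0.02), it was 0.044 from uncorrected read pairs, and its interval left out 0 when summed contacts were divided by summed expected values (-0.15, -0.27 to -0.03). The contacts with the Hoxd1 side were 1.58 (1.51 to 1.67, 3490 read pairs) and 2.01 (1.91 to 2.12, 2584 read pairs), with a log2 ratio of 0.35 (0.24 to 0.45). Neither ratio passed 1.5-fold, as 17.7% and 17.8% of the autosomal windows did in either direction for the flank at lower and at higher coordinates. The Hoxd1-side value was above 94.9% of the windows in WT and 96.2% in the KO-labelled matrix, and its ratio was above 84.7% of them. The Hoxd13-side ratio lay near the middle of the windows, whose median was -0.09, with 47.5% of them lower.

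By distance, the largest ratio on the Hoxd1 side was that of the bins at 480 to 1000 kb, a range picked after the profile was seen. There the Hoxd bins had 1.54 (1.42 to 1.68, 749 read pairs) in WT and 2.52 (2.32 to 2.74, 757 read pairs) in the KO-labelled matrix, and the log2 ratio was 0.71 (0.54 to 0.87). Of like sets of 4-bin windows and 1 side, 9.95% were higher in the KO-labelled matrix by over 1.5-fold, and the median log2 ratio of all of them was -0.13. The windows were not each searched for a range of their own, so this share does not place the Hoxd value among them. Within 480 kb the values were 1.72 and 1.79 with a log2 ratio of 0.06 (-0.05 to 0.17), and from 1000 to 1480 kb the log2 ratio was 0.18 (-0.07 to 0.43). For single Hoxd bins, bin 3 had 0.19 (0.004 to 0.37) within 480 kb and bin 2 had 0.54 (0.08 to 1.01) from 1000 to 1480 kb. The other single bins in these ranges had values from -0.22 to 0.15, with intervals that include 0.

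By Hoxd bin, the ratio at 480 to 1000 kb was 0.90 (0.63 to 1.18) for bin 2 and 0.74 (0.43 to 1.04) for bin 3. It was 0.62 (0.22 to 1.02) for bin 1 and 0.35 (0.01 to 0.68) for bin 4. All 4 Hoxd bins were higher in the KO-labelled matrix in this range. The range was picked after the profile of these same bins was seen, so their ratios are parts of the picked value and not separate support. The WT boundary without a called partner lies in it too, but a link was not tested, and both readings come from the same matrices. On the Hoxd13 side the log2 ratio was -0.26 (-0.44 to -0.07) within 480 kb, -0.09 (-0.29 to 0.10) from 480 to 1000 kb and -0.06 (-0.34 to 0.22) beyond. For single Hoxd bins on that side, bin 4 had -0.66 (-1.17 to -0.16) within 480 kb and bin 3 had -0.55 (-1.07 to -0.03) from 480 to 1000 kb. The intervals of the other single bins on that side include 0.

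**Figure D5:**
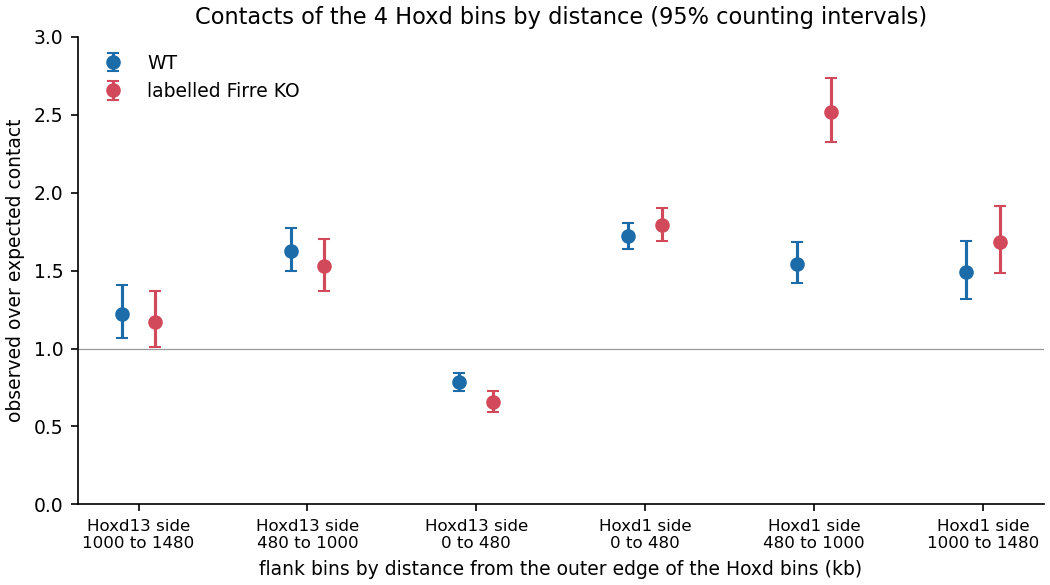
Observed over expected contact (y axis) of the 4 Hoxd bins together with flank bins grouped by side and by distance from the outer edge of the Hoxd bins (kb, x axis), where points are the single matrix of each group and bars are 95% counting intervals. The matrices stand far apart in 1 group, the Hoxd1 side from 480 to 1000 kb, at 1.54 in WT and 2.52 in the KO-labelled matrix.

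Of the 37 single flank bins on the Hoxd1 side, 11 were over 1.5-fold higher and 3 over 1.5-fold lower in the KO-labelled matrix. On the Hoxd13 side 5 of 37 were higher and 9 lower. Over all 4-bin windows of chromosome 2, 18.0% of single flank bins were higher and 28.8% lower by that fold. The largest ratio was found at the start of Ttc30b, a gene of intraflagellar transport, at chr2:75760001-75800000 (log2 ratio 1.70, 0.74 to 2.65), from 12 and 34 read pairs. The bin of Nfe2l2, which encodes the regulator of the antioxidant response Nrf2, followed at chr2:75520001-75560000 (1.54, 0.76 to 2.32), from 20 and 41 read pairs. The flank genes Ttc30b and Nfe2l2 were named after their values were seen.

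The flanks met each other across the cluster at about the chromosome mean. Pairs of a bin from each flank at most 1.5 Mb apart had 1.11 (1.06 to 1.16) in WT and 1.03 (0.978 to 1.09) in the KO-labelled matrix, with a log2 ratio of -0.10 (-0.20 to -0.01). This ratio passed 1.5-fold in either direction in 21.0% of the windows, and their median was also -0.10, with 49.9% of them lower than Hoxd. The value depended on the reach of the flanks. With flanks of 0.5 Mb, which adjoin the cluster, the contacts across it were 0.536 in WT and 0.373 in the KO-labelled matrix, and the log2 ratio was -0.52 (-0.89 to -0.16). With flanks of 1 Mb they were 0.998 and 0.740, with a log2 ratio of -0.43 (-0.57 to -0.29). Contacts within the Hoxd13-side flank had 0.964 and 0.947, and those within the Hoxd1-side flank 1.02 and 1.08.

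Beyond 1.5 Mb, read pairs of the Hoxd bins with other genes of chromosome 2 were few. The bins of 24 developmental regulator genes, 23 bins in all, shared 19 read pairs with the Hoxd bins in WT and 11 in the KO-labelled matrix, and those of 19 broadly expressed genes shared 18 and 12. Above 1.5 observed over expected lay 6 of 23 regulator bins in WT and 4 in the KO-labelled matrix, and 6 and 5 of 19 bins of broadly expressed genes. Over 1192 bins of protein-coding starts the shares were 25.8% and 21.8%, which are near those of both lists. A difference between developmental regulators and broadly expressed genes was not detectable at this depth.

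The highest WT values of these lists were at Top1, which encodes a DNA topoisomerase, with 8.89 (1.05 to 33.5) from 2 read pairs, and at Rpl7a, a ribosomal protein gene, with 3.88 (0.470 to 14.0) from 2 read pairs. In the KO-labelled matrix Top1 had 0 read pairs, with an upper bound of 27.1, and Rpl7a had 11.3 (3.05 to 29.4) from 4 read pairs. Lhx2, a homeobox gene of forebrain and limb, followed with 3.46 (0.941 to 8.99) from 4 read pairs in WT, and had 0 read pairs in the KO-labelled matrix, with an upper bound of 7.07. Many genes of the lists had no read pair, 11 of the 23 regulator bins and 9 of the 19 others in WT, so no single gene was the lowest. With the Hoxa, Hoxb and Hoxc clusters on other chromosomes, the Hoxd bins shared 2 read pairs in WT and 3 in the KO-labelled matrix, too few to compare.

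Measured in the same way, Hoxa also had a first bin that leaned to the side of its high-numbered genes and a last bin that leaned to the other, with preferences of 1.01 and -1.24 in WT. Its difference between the first and the last bin was 2.25 (1.91 to 2.58) in WT and 2.62 (2.22 to 3.01) in the KO-labelled matrix, beside the Hoxd values of 1.59 and 1.75. The intervals of Hoxa and Hoxd just overlapped in WT and did not overlap in the KO-labelled matrix. At Hoxb it was 1.05 (0.58 to 1.52) and 0.85 (0.32 to 1.38). At Hoxc it was 0.92 (0.54 to 1.30) and 0.28 (-0.23 to 0.78). The preferences of the first and last Hoxc bins were both below 0, at -0.10 and -1.02 in WT and -1.06 and -1.33 in the KO-labelled matrix. Those of Hoxb were 0.20 and -0.85 in WT and -0.25 and -1.11 in the KO-labelled matrix. The contacts with the flank beside the low-numbered genes had a log2 ratio of 0.13 (0.03 to 0.22) at Hoxa, 0.31 (0.18 to 0.44) at Hoxb and -0.10 (-0.22 to 0.02) at Hoxc, next to 0.35 at Hoxd.

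The 5 genes whose start bins had the profile most like that of the Hoxd bins were Ccdc99, Prkaa1, Ebf1, Foxc1 and Dhx32. The bin of Dhx32 also holds the start of Fank1, which shares its value. The likeness was Pearson's r of the log2 observed over expected values over 148 points, 74 flank bins in each of both matrices. It was 0.63 for Ccdc99, 0.62 for Prkaa1, 0.60 for Ebf1, 0.59 for Foxc1 and 0.59 for Dhx32. Over 13951 gene bins of the autosomes the median was -0.14 and the 95th percentile 0.32. Neighbouring flank bins lie at near the same distance from the cluster and both matrices cover the same bins, so the points are not independent.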

How the data were processed

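Hi-C was analysed in 2 groups of mESCs with 2 libraries each, which the study gives as technical duplicates. The authors cut chromatin with HindIII, pooled the libraries of a group, mapped them to mm9, binned the read pairs at 40 kb and corrected the matrix with HiC-Pro (2.7.8 per the submitters' processing notes). The deposited signal is a corrected contact value for each pair of bins, scaled so that every kept bin sums to 1 shared total. A value equals its read pairs, a whole number, times the weights of both bins. Fitting these weights returned the read pairs and so the depth, with 100% of entries less than 0.05 from an integer. There were 62678 kept bins in WT and 62625 in the KO-labelled matrix.

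Gene positions came from GENCODE on the same build, and the lengths of all chromosomes matched. Observed over expected values are means over bin pairs. Insulation used an own implementation of the study's settings (square of 480 kb, delta span of 320 kb, smoothing of 160 kb, interquartile mean), whose details can differ from the study's script. With 1 matrix per group no test was run, and no p-value is given. Intervals of 95% treat read pairs as Poisson counts with fixed weights. Read pairs without molecular identifiers are not independent molecules, so intervals cover counting error only. Those of the insulation values come from the plain mean of the square and were set about the reported value. Calculations were run in Python 3.11.15 with numpy 2.4.6, scipy 1.17.1 and pandas 2.3.3, and tested on simulated data.

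The members, gene lists and measures were chosen with earlier results of these data known. Named by rule were the members, Evx2, Lnp, Mtx2 and the genes next beyond, genes starting in the 3 highest WT flank bins of each side with at least 20 read pairs, the 3 highest genes and the lowest of the long-range lists, and the 5 of most like profile. Of the 25 listed regulators, Sp9 lies in a flank and was left out. Like profiles used a pseudocount of 0.1. Alternatives covered the reach of the flanks, the shortest distance, the expected value, the summary, the correction, the bins and the insulation settings.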

Additional observations from a re-analysis of the deposited data

How the results depend on the processing

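Of 71 alternative values, 58 lay within the counting interval of the reported value, 13 lay outside it and 0 of the values called by their interval changed sign. With flanks of 0.5 Mb, the log2 ratio of the matrices was -0.26 for the Hoxd13 side, 0.059 for the Hoxd1 side and -0.52 for contacts across the cluster, and the first minus last preference was 2.12 in WT and 2.87 in the KO-labelled matrix. With flanks of 1 Mb the ratio across the cluster was -0.43. The step from bin 1 to bin 2 in WT was 2.22 with flanks of 1 Mb and 2.22 with flanks of 0.5 Mb. With a square of 960 kb, boundary strength differed by 0.30 and the insulation score by -0.081. From uncorrected read pairs these were 0.55 and -0.26, and the ratio for the Hoxd13 side was 0.044. The cause of these shifts was not tested. The alternatives for the step between the first 2 bins, and those for 480 to 1000 kb (0.62 to 0.74), were added after the data were seen. No paired analysis was possible because both libraries of a group were pooled in 1 matrix, and no replicate could be left out for the same reason. Depth limits long-range contacts, where most gene bins held 0 to 2 read pairs.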
